A study of Mus musculus with 10 samples.

Results

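A 150 kb stretch of mouse chromosome 11 (build mm9), which surrounds the microRNA gene Mir21 and its host gene Vmp1, held 33 of the 114312 regions listed for RelA and the glucocorticoid receptor (GR) by chromatin immunoprecipitation sequencing (ChIP-seq). The members were all regions of the 7 RelA lists and the 2 GR lists that overlapped this window, and they ran from 86389621 to 86485039. No region of the input DNA list lay in the window, and the nearest one was 2309 kb above it, so no member was marked as shared with input. That input is labelled as untreated genomic DNA and as the control for RelA. It was also used to mark the GR regions, for which no input of their own was listed. The window was selected on the RelA calls themselves, since regions were known to be dense in it, and that density is a description here and not a finding.

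The cells were primary macrophages grown from bone marrow of C57BL/6J mice. They received lipopolysaccharide (LPS), the outer membrane glycolipid of Gram-negative bacteria that Toll-like receptor 4 senses, the synthetic glucocorticoid dexamethasone (Dex), or both. RelA, the p65 subunit of NF-κB, was profiled at 0, 3 and 8 h of LPS without Dex. It was also profiled at 0, 3 and 8 h of LPS after 3 h of Dex pretreatment, and at 8 h of LPS with Dex given late, at an hour the labels do not state. The names under which the 0 h and late Dex lists were deposited carry further times that their labels do not explain, and conditions here, resting cells included, are those of the labels alone. The 2 GR libraries were of cells given Dex or LPS together with Dex, after cross-linking with disuccinimidyl glutarate and formaldehyde, with no times in the labels; RelA chromatin was cross-linked with formaldehyde only. Each condition had 1 library, so there is no replicate error and no test between conditions, and neither the number of cultures nor the number of mice behind a library is given in the labels. The lists hold no read counts, and the depth of the libraries is unknown.

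MicroRNAs are short RNAs that lower the output of messenger RNAs by pairing with them mainly through the seed, the bases from position 2 to 8 of the mature strand. The microRNA miR-21 is well known in macrophages, where LPS raises it and where it lowers Pdcd4, a translation inhibitor that favours inflammatory cytokine production. Vmp1 encodes a membrane protein of the endoplasmic reticulum needed for autophagy, and the primary transcript of miR-21 can start inside this gene. NF-κB enters the nucleus after LPS and binds enhancers and promoters of inflammatory genes. GR, once bound by a glucocorticoid, binds DNA directly or sits on it through other factors, and the repression of NF-κB target genes is among its best known effects. Neither RNA level was measured in these libraries.

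The mature strands of Mir21, called Mir21a in RefSeq for GRCm38.p6 and on the minus strand there, are shown to identify the gene, with the seed in capitals. The strand of another gene, Mir21c, is shown beside them because it has the same seed. The first 2 lines share a seed, and in the table of 1679 mature mouse names no further name had it. No other of these names shared the seed of the 3p strand. Mature microRNAs outside the 1679 names were not searched, so others with either seed may exist.
mmu-miR-21a-5p: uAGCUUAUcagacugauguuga
mmu-miR-21c: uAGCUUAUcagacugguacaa
mmu-miR-21a-3p: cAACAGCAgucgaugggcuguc
In the same assembly Mir21a lies inside the interval of Vmp1, which also holds Gm46289, Gm51914 and Gm11478, and the nearest protein-coding genes on either side are Tubd1 and Ptrh2. The gene tables are on another build than the regions. The sites are therefore given by position alone, and which of them falls on the Mir21 hairpin, a start site, an exon or an intron was not determined.

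Regions of all RelA and GR libraries that shared at least 1 bp were joined, which gave 17 sites, numbered here from low to high position. RelA was listed at 11 of them and GR at 13. Both factors were listed at 7 sites, RelA without GR at 4 (sites 5, 6, 7 and 8), and GR without RelA at 6 (sites 1, 2, 3, 12, 16 and 17). RelA sites took up the lower part of the window, from 86393814 to 86438433, a span of 44619 bp, and the upper part held GR at sites 16 and 17 alone. The first 6 RelA sites, 4 to 9, were packed into 7184 bp, whereas sites 9 and 10 were 8452 bp apart.

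**Figure D1:**
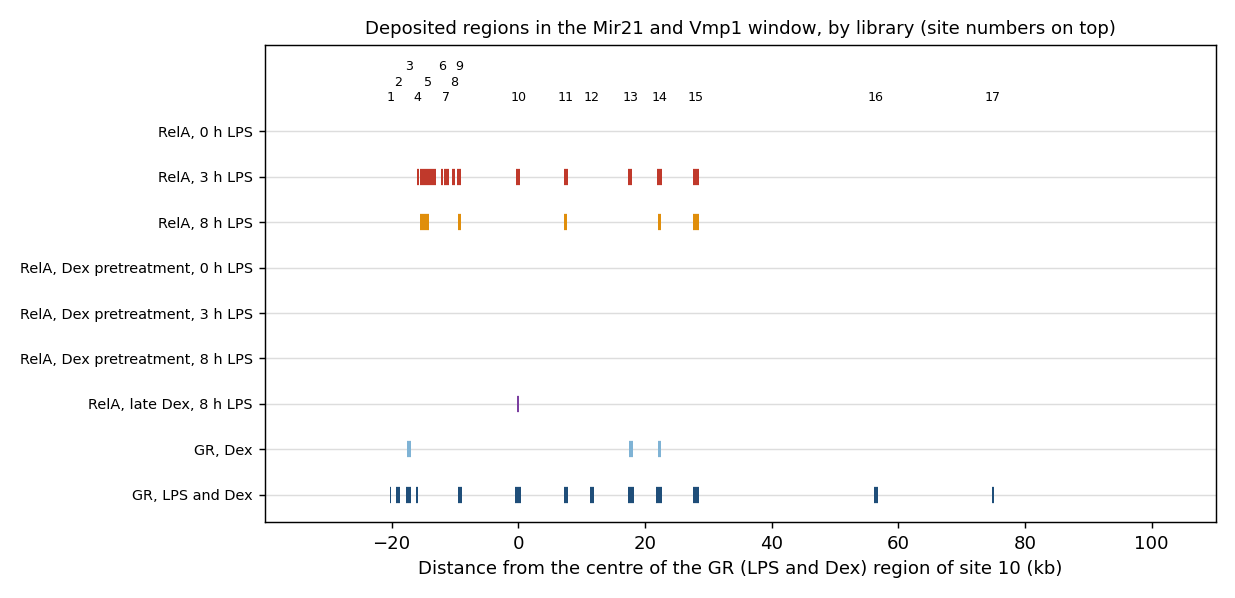
Positions of the 33 regions (bars, to scale) in each of the 9 RelA and GR libraries, as distance in kb from the centre of the GR region at site 10, with site numbers on top. RelA is present at 3 h and 8 h of LPS and at 1 site with late Dex, and the rows for 0 h and for the 3 pretreated libraries are empty.

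RelA was listed nowhere in the window in the library labelled 0 h of LPS, at 11 regions after 3 h of LPS and at 5 after 8 h. Of all 3 h regions of the genome 0.744% were called at 0 h, so 0 of 11 is near that background. No region was listed after Dex pretreatment at 0, 3 or 8 h of LPS; with pretreatment alone the background was 0.603% of the 3 h regions. With late Dex there was 1 region, at site 10, or 1 of the 11 sites of 3 h, against 4.24% of the whole 3 h list. The regions of 3 h covered 8692 bp, or 5.79% of the window, those of 8 h 3850 bp and that of late Dex 362 bp. Consecutive windows of the same length across the genome with any 3 h region outside input numbered 2914, with a median of 1 region each, and 6 of them, this one included, held at least 11. The windows were laid out from the start of this one, which was chosen around its RelA regions. Dense groups elsewhere could be split between neighbouring windows, so the 6 is a description and no measure of rarity. The edges of the window cut through no group of RelA regions. The next 3 h region above it began 50.8 kb further on, with a highest tag density of 30.6, and the next below ended 663 kb away, with a density of 15.6. Just inside, the lowest 3 h region had a density of 13.5 and the uppermost 51.2. For GR with LPS and Dex the next regions outside were 39.1 kb above (density 15.4) and 174.3 kb below (20.5), and the outermost ones inside had 17.1 and 17.8.

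Strength is given as the highest tag density of a region, a value of the authors on a scale whose normalisation between libraries is not stated. Over the 11 regions at 3 h it ran from 13.5 through a median of 28.0 to 51.2, against a median of 18.5 in the whole list outside input. The strongest RelA site was site 15 (86437493 to 86438433), at the upper end of the RelA sites. Its density was 51.2 at 3 h, rank 239 of 5017 regions, and 53.5 at 8 h, rank 159 of 1890. Site 14 (86431731 to 86432669) had 38.3 at 3 h and 30.5 at 8 h. Site 11 (86417120 to 86417732) had 37.2 and 35.0. These 3 sites were listed at both LPS times, with a density at site 14 that was 0.795 of the 3 h value at 8 h and densities at sites 11 and 15 that were 0.941 and 1.04 of it.

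Site 5 (86394388 to 86396934) was the broad one. Its RelA region was 2495 bp wide at 3 h, and 12 regions of the whole 3 h list were wider, against a list median of 538 bp. At 8 h the region was 1474 bp wide. It began 51 bp before the 3 h region and ended 1072 bp short of its upper end, so the part lost from the list was on the upper side. Density was 32.9 at 3 h and 25.4 at 8 h. Site 9 (86400272 to 86400998), the last of the packed group, had 23.9 at 3 h and 23.8 at 8 h.

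The other 6 sites had a RelA region at 3 h and none at 8 h without Dex. Between sites 5 and 9, sites 6, 7 and 8 had densities of 17.97, 20.5 and 17.93, close to the median of the list. Site 4 was the weakest, with 13.5 and a width of 252 bp. Site 13 (86427258 to 86428174) had 28.0. Site 10 (86409450 to 86410406) had 36.3, rank 545 of the list, and was the strongest 3 h site of the window without a region at 8 h.

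**Figure D2:**
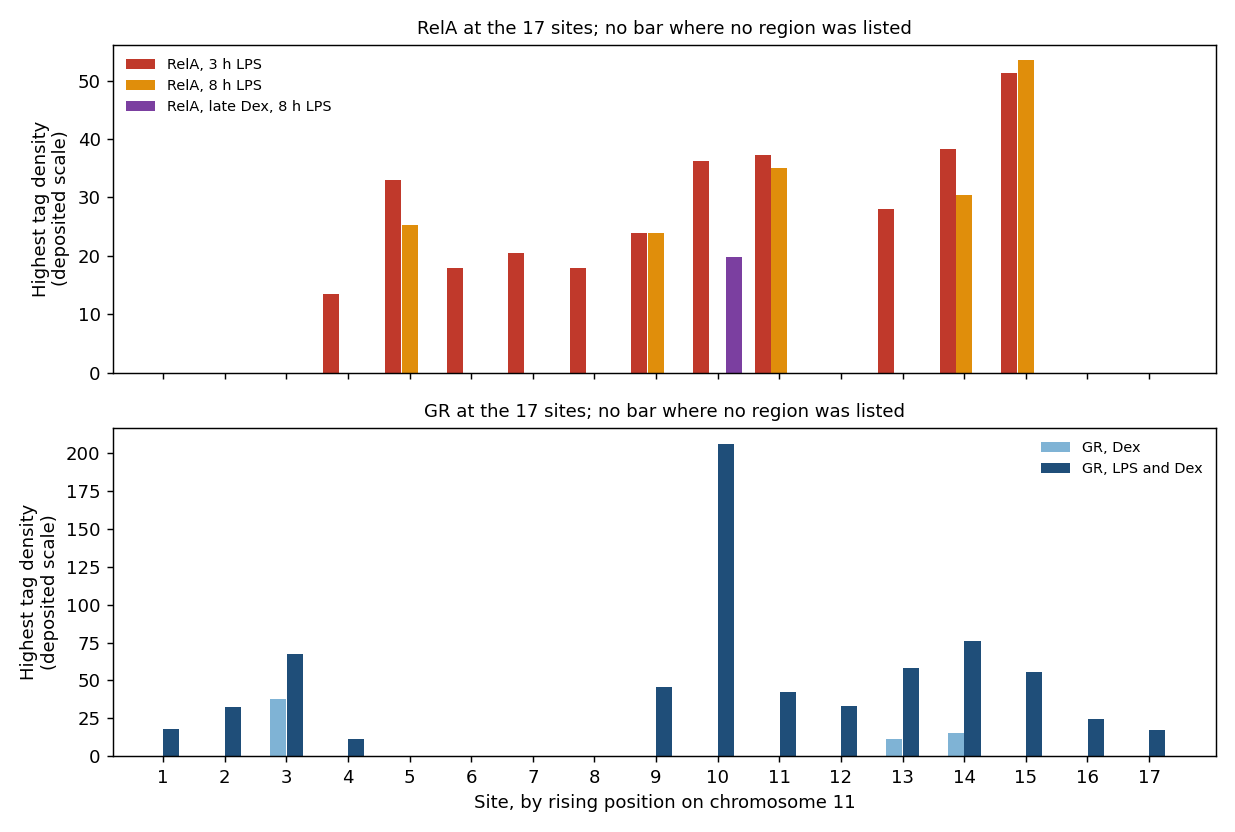
Highest tag density (deposited scale, bars from 0) of RelA (upper panel) and GR (lower panel) at the 17 sites in order of position, 1 library per bar and no error bars since there are no replicates. Site 15 leads for RelA at 51.2 and 53.5, and site 10 leads for GR with LPS and Dex at 206.1.

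The time course asked which RelA sites last. Of the 11 regions at 3 h, 5 were listed at 8 h, which is 45.5% (Wilson 95% interval 21.3 to 72.0; intervals here cover counting error only, and neighbouring regions are not independent), against 31.3% of all 4972 regions at 3 h. All 5 regions at 8 h were listed at 3 h, against 83.9% in the whole list. Regions kept at 8 h had a median 3 h density of 37.2 (23.9 to 51.2) and the 6 others 19.2 (13.5 to 36.3), so the ranges overlapped. In the whole list the share listed at 8 h rose from 8.84% in the lowest quintile of 3 h density to 75.4% in the highest. Sites 5, 11, 14 and 15 lay in the highest quintile and were kept; site 10 lay there too and was not. Site 9 in the next quintile was kept and site 13 was not, where 38.3% of the list was. Sites 6, 7 and 8 were in the middle quintile, with 20.6% kept, and site 4 in the lowest. The 8 h list begins at a higher score of the authors (10.9) than the 3 h list (8.88), and 3 of the 11 sites at 3 h (4, 6 and 7) had scores under 10.9. With scores of at least 11 in both lists, 5 of 8 regions were kept, against 42.1% of the whole list.

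At the 5 sites of both times the log2 ratio of densities, 8 h over 3 h, was set against the 1556 shared regions of the genome, whose median was 0.04 (quartiles -0.34 and 0.36). It was 0.06 at site 15, -0.01 at site 9 and -0.09 at site 11, near that median. It was -0.33 at site 14 and -0.38 at site 5, higher than 25.4% and 23.3% of the shared regions. None of the 5 was thus at an extreme of the shared regions.

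Dex given before LPS was compared with LPS alone. None of the 11 regions at 3 h had a counterpart after pretreatment, where 0.241% of all 3 h regions had one. None of the 5 at 8 h had one either, where the share of the list was 0.16%. The pretreated lists held 33 and 15 regions outside input at those times, so the absence from this window is that of nearly every RelA region. Of their 84 and 78 regions in all, 51 and 63 overlapped input, against 45 of 5017 and 12 of 1890 without Dex. Whether RelA binding or the quality of these single libraries differed was not tested. Late Dex left 225 regions outside input, among them site 10 with a density of 19.7, rank 176 of 250, and a width of 362 bp. None of the 5 sites of the 8 h list was listed with late Dex, against 10.8% of that list called. Sites 5 and 9 lay in the middle quintile of 8 h density, with 2.39% of the list called, and sites 11 and 14 in the next, with 7.73%. Site 15 lay in the highest, where 40.2% (35.3 to 45.2) of 376 regions were called.

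The single late Dex region was in the list with Dex and absent from the list without it. Of the 225 late Dex regions, 89.8% were called at 8 h without Dex, and site 10 was among the 23 that were not. It was also among the 13 of those 23 that were called at 3 h, as were 94.2% of all late Dex regions. In that class of 13 its density with late Dex ranked 6, and its density at 3 h, 36.3, was the median. In 12 of the 13 a GR region of LPS and Dex was met, against 95.1% of all late Dex regions, and in 5 of the 13 a GR region of Dex, against 31.6%. The GR density with both agents had a median of 140.4 over the 12, and site 10 ranked 5 by that value. Late Dex over 3 h without Dex gave a log2 ratio of -0.88 at the site, higher than 66.4% of the 211 regions shared by these lists, whose median was -1.16. The score of the late Dex region was 10.9345, where the lowest score of the 8 h list without Dex was 10.8932 and that of the late Dex list 9.8489. The call thus rests on a region close to the lowest scores, and once scores under 11 were dropped no late Dex region was left in the window.

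**Figure D3:**
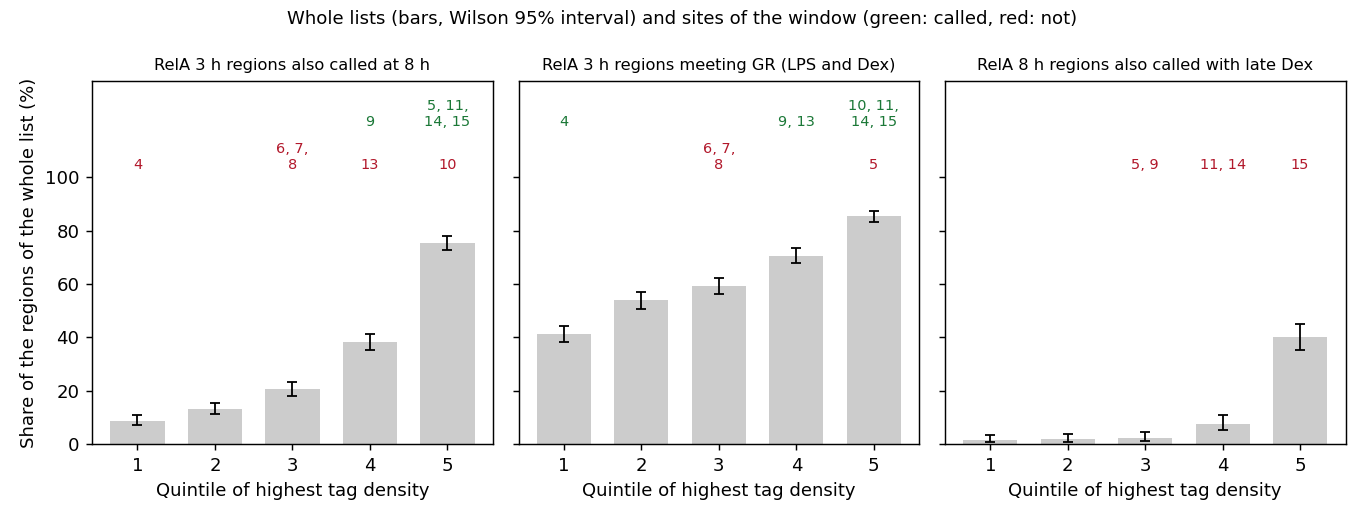
Share of the regions of whole lists (bars, %, with Wilson 95% intervals) by quintile of highest tag density, 5 being the densest, for 3 h RelA called at 8 h, 3 h RelA meeting GR of LPS and Dex, and 8 h RelA called with late Dex. Numbers above the bars are the sites of the window, green where called and red where not: site 10 is the one site of the highest quintile not called at 8 h, where 75.4% of the list was called, and none of the 5 sites in the right panel was called with late Dex.

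GR was listed at 3 regions of the window with Dex and at 13 with LPS and Dex. All 16 had a highest tag density of at least 10. At that density the whole lists outside input held 3733 and 16366 regions, and the window was close to that balance. With no cut on density the lists outside input held 54875 and 51358 regions, a balance that the 3 and 13 did not follow. The cut of 10 is on a scale whose normalisation between the libraries is not stated. The 3 regions with Dex were at sites 3, 13 and 14, and each was met by a region with both agents; in the whole lists 89.4% of Dex regions with a density of at least 10 were. Of the 13 regions with both agents 3, or 23.1% (8.18 to 50.3), had a Dex counterpart, against 21.7% of the 16366 regions of that density. The share with a counterpart was thus near that of the list at that density. Their densities ran from 11.6 through a median of 42.2 to 206.1, and the median of the whole list outside input was 4.01. Most regions of that list were under 10, unlike those of the window. Among its regions of at least 10, the middle quintile ran from 18.8 to 24.9.

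Site 10 carried the strongest GR signal of the window with both agents. The GR region there had a density of 206.1, rank 53 of 51639, a score of 140.7 and a width of 956 bp. No region was listed there with Dex alone. Among the 32170 regions with both agents that met no Dex region, none had a higher density. Of the 3085 RelA regions at 3 h that met GR of LPS and Dex, 32 met one with a higher density, and their median was 32.9. The ratio of GR density to RelA density at 3 h, whose absolute value depends on unknown scales, was higher at site 10 than at 95.5% of these regions. At the other 6 sites with both factors it was higher than at 19.4% (site 4) to 67.7% (site 13). RelA was thus present at site 10 at 3 h with LPS alone and with late Dex, and GR with LPS and Dex.

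Sites 13 and 14 were the only RelA sites with GR in both GR libraries. At site 13 the GR density was 11.2 with Dex and 58.3 with LPS and Dex. At site 14 it was 15.5 and 76.2. The log2 ratio was 2.38 and 2.30, higher than at 95.003% and 93.62% of the 3182 regions with a density of at least 10 in both lists, whose median was 1.16. Shared regions with a Dex density under 10 were left out of that comparison, and the Dex density of site 13 was close to that limit. Site 3 (86392244 to 86392970), below all RelA sites, was the strongest Dex region of the window, with 37.4, rank 451 of 55196, and 67.3 with both agents. Its log2 ratio of 0.85 lay below that median.

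The 3 other RelA sites with substantial GR had it with both agents only. GR density was 55.8 at site 15, 45.7 at site 9 and 42.2 at site 11. All 3 lay in the highest quintile of GR regions with both agents and a density of at least 10, where 53.0% had a Dex counterpart. Site 4 had 11.6, the lowest in the window. Of the 13 GR regions with both agents, 7 met RelA of 3 h, or 53.8% (29.1 to 76.8), against 18.7% of all such regions with a density of at least 10, in a window picked for its RelA regions. GR sites without RelA, 6 with both agents, had a median density of 28.5 (17.1 to 67.3), and the 7 with RelA 55.8 (11.6 to 206.1), so the ranges overlapped. Site 12, between the RelA sites 11 and 13, had 32.9, site 2 had 32.7 and site 1 had 17.8. Sites 16 and 17, in the upper part, had 24.3 and 17.1.

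Seen from RelA, 7 of 11 regions at 3 h, 63.6% (35.4 to 84.8), met GR of LPS and Dex, where 62% of the whole list did, and 2 met GR of Dex, 18.2% (5.14 to 47.7) against 17.5%. Both shares were near those of the whole list. At 8 h it was 4 of 5 against 85.8% and 1 of 5 against 18.4%. The 4 RelA sites without GR were neighbours, 5 to 8, and sites 4 and 9 at either end of them had GR of both agents. Site 5 lay in the highest quintile of 3 h density, where 85.4% of the list met such GR, and was the one site of that quintile in the window that did not. Where both were listed, the centres of the RelA region at 3 h and of the GR region were 5 to 101.5 bp apart, with a median of 64 bp over 7 sites. Only overlapping regions enter that distance, which builds in part of the closeness. GR and RelA came from cells treated differently, and from different cross-linking, and their densities cannot be equated.

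**Figure D4:**
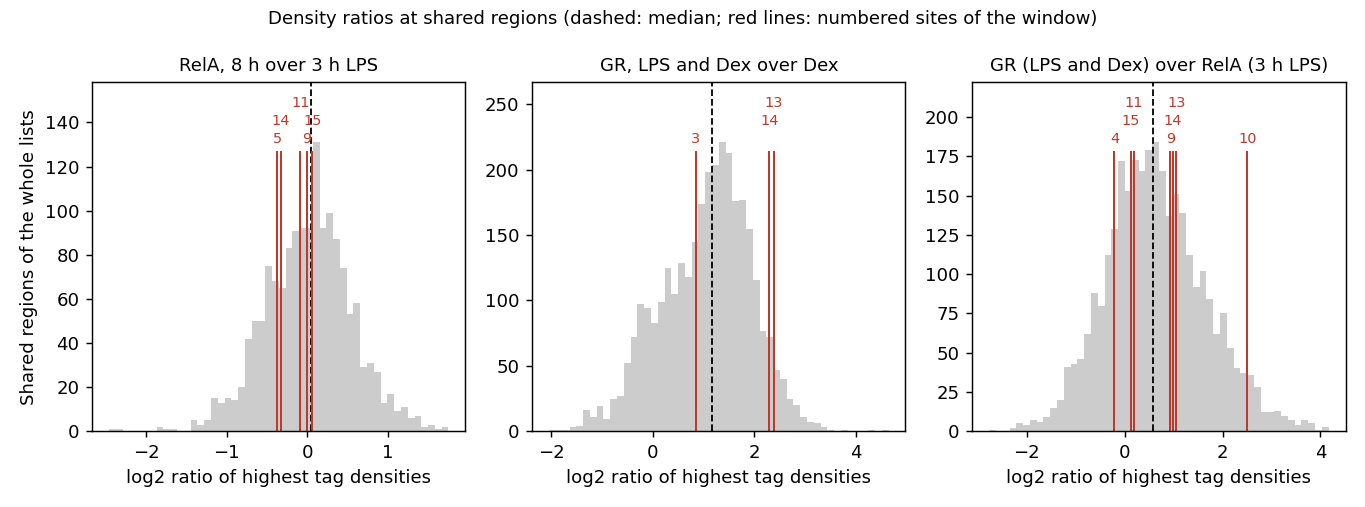
Histograms of the log2 ratio of highest tag densities over regions shared by a pair of lists (1556, 3182 and 3085 regions), with the median dashed and the numbered sites of the window as red lines. The 3182 are those with a density of at least 10 in both GR lists. The 5 RelA sites lie from -0.38 to 0.06 around the median of 0.04, sites 13 and 14 lie at 2.38 and 2.30 in the upper tail for GR, and site 10 lies at 2.51 in the upper tail for GR over RelA.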

How the data were processed

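The authors deposited 1 list of regions per library for 7 RelA, 2 GR and 1 input library. CASAVA was used on the reads and mm9 was the build, per the submitters' processing notes. The caller of the regions, the threshold and the scale are not stated in the sources used here. Tag densities are signal values, the score is a z-score and the p-value belongs to the same region, per the file headers; the p-value as deposited by the authors was not used further. Coordinates and widths (end minus start) are as deposited. An overlap meant 1 bp or more in common, and regions meeting input were left out of whole-list shares. The window, sites and rules were chosen with earlier results of these data known. By the rule for naming, all sites with RelA and all GR sites with a density of at least 10 were described. Density quintiles were taken within each list outside input, shares carry Wilson 95% intervals, and where several regions met, the densest was used for ratios. No test between conditions was run. Overlap code was tested on simulated data. Alternatives were reciprocal overlap of 50%, centres no more than 250 bp apart, a score of at least 11, input-meeting regions kept, a window wider by 50000 bp on each side, chaining within 500 bp, GR density of at least 10, mean density and uncentred ratios. Python 3.11.15, pandas 2.3.3, NumPy 2.4.6 and SciPy 1.17.1 were used.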

Additional observations from a re-analysis of the deposited data

How the results depend on the processing

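Across the alternatives, 60 of 63 counts that answer a comparison stayed within 1.5 times of the reported one, including every count of 0 at 0 h and after pretreatment. Many of these could not have changed. No member met input, and every GR region of the window had a density of at least 10, so those 2 alternatives altered nothing. A count of 0 could not rise under a higher score, reciprocal overlap or chaining. The 60 of 63 therefore overstates how far the counts were tried. Chaining regions within 500 bp turned the 11 RelA sites at 3 h into 7. A score of at least 11, chosen after seeing the data for counts by library, took late Dex from 1 site to 0. At that score GR regions with LPS and Dex went from 13 to 10, with sites 1, 4 and 17 dropping out. RelA sites of 3 h meeting such GR went from 7 to 6. With at least 50% of both regions shared, RelA sites of 3 h meeting GR of Dex went from 2 to 1 (site 13 stayed). With centres no more than 250 bp apart, RelA sites of 3 h also called at 8 h went from 5 to 4. Site 5 was lost there, because its 3 h and 8 h centres were 561.5 bp apart. The median log2 ratio of 8 h over 3 h at the 5 shared sites, centred on the genome's median, was -0.127; it was -0.097 with mean density and -0.088 uncentred. With mean density the centred ratio changed sign at site 9, from -0.045 to 0.053, and at site 15, from 0.022 to -0.005; both are close to 0. Sites with fewer tags than a list's lowest score needs cannot be seen, so a site not listed is not shown to be unbound. No paired analysis was possible because each condition had 1 library.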
